A study of Mus musculus with 6 samples.

Results

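The Fc gamma receptor genes of the mouse were followed in cultured osteoclasts with and without a Cre transgene meant to delete *Ano1*, the gene of a calcium-activated chloride channel. The members were taken by gene name from the array files, as *Fcgr1*, *Fcgr2b*, *Fcgr3*, *Fcgr4* and *Fcgrt*, which gave 5 of 37069 gene names and 7 probes, and all 5 genes were among the 20645 genes tested. The cultures started from the bone marrow of 3 *Ano1fl/fl* mice, which carry loxP sites around *Ano1* and no Cre, and of 3 *Ctsk-Cre;Ano1fl/fl* littermates, in which Cre made from the cathepsin K promoter cuts it in cells that express that gene. Both groups carried the floxed *Ano1* alleles and received the same RANKL, the cytokine that drives osteoclast formation, for 5 days. For such cultures the study's methods give marrow from mice of 6 to 8 weeks, 1 day in 10 ng/ml M-CSF, a growth factor of the precursors, and then 30 ng/ml M-CSF with 50 ng/ml RANKL. The strain of these mice was not stated, beyond a backcross to C57/BL6 that the study gives for most of its lines.

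Fc gamma receptors bind the constant part of IgG antibodies and are carried by macrophages, neutrophils and osteoclast precursors. *Fcgr1* encodes the high-affinity receptor, and *Fcgr3* and *Fcgr4* encode receptors of lower affinity that bind antibody in immune complexes; all 3 signal through the common gamma chain, encoded by *Fcer1g*, whose ITAM motif recruits the kinase Syk. *Fcgr2b* encodes the inhibitory receptor, whose ITIM motif recruits the phosphatase SHIP1, the product of *Inpp5d*. *Fcgrt* encodes the neonatal Fc receptor, which pairs with beta-2 microglobulin (*B2m*) inside the cell and returns IgG to the surface instead of passing it to the lysosome. In osteoclast precursors the gamma chain, together with DAP12 (*Tyrobp*), supplies the costimulatory signal that RANKL needs.

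Total RNA was hybridised with a single dye to 6 Agilent arrays, all from 1 slide and 1 scan. Of the 59305 transcript spots on an array, 33480 to 34951 were well above background by the scanner's mark and 0 were saturated. The values below are log2 processed signals after quantile normalization, and a difference is always the *Ctsk-Cre;Ano1fl/fl* mean minus the *Ano1fl/fl* mean. The *Ano1* probe was above background on 0 of 6 arrays, with signals of 3.2 to 3.9 units, so it could not check the genotypes. The defining osteoclast markers *Ctsk*, *Acp5* and *Mmp9* were above background on all 6 arrays. They were 9.01-fold, 1.79-fold and 20.5-fold higher on the arrays labelled *Ctsk-Cre;Ano1fl/fl*, and *Nfatc1*, the transcription factor that drives osteoclast formation, was 1.44-fold higher (limma adjusted p of 0.00348 or less). The study's PCR of such cultures has these markers lower in that genotype, so the arrays go against it under their labels. Whether the labels of the groups were exchanged was not tested. Every direction given here follows them and would turn if they were. Bulk RNA cannot tell fewer cells of a type from less RNA per cell. The cultures came from separate mice, and the number of arrays limits the precision.

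The arrays carry 1 probe for each of *Fcgr1*, *Fcgr4* and *Fcgrt* and 2 for each of *Fcgr2b* and *Fcgr3*, and all 7 were well above background on all 6 arrays. The 60-base sequences of 4 probes are shown here, 5′ to 3′ as the array files give them. They are the only probes of *Fcgr1* and *Fcgrt* and the second probes of the related genes *Fcgr2b* and *Fcgr3*. The main differences of *Fcgr2b* and *Fcgr3* were read from their brightest probes, whose sequences are not shown, nor is that of the *Fcgr4* probe.
Fcgr1 (mm9 chr3:96088462-96088521, minus strand): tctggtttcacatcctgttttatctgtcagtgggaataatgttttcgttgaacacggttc
Fcgr2b, second probe (mm9 chr1:172895833-172895892, minus strand): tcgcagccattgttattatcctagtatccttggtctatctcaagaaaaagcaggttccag
Fcgr3, second probe (mm9 chr1:172984129-172984188, minus strand): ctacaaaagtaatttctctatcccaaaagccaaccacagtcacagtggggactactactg
Fcgrt (mm9 chr7:52350556-52350615, minus strand): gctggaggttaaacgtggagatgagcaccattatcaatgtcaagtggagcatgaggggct
The brightest *Fcgr2b* probe lies at chr1:172890988-172891047, the brightest *Fcgr3* probe within chr1:172981647-172981722 and the *Fcgr4* probe at chr1:172959738-172959797. The longest run of bases that any of the 7 probes shared with a probe of another member was 7, and 0 probes of other genes on the array held a run of 16 bases from them. Matches to transcripts themselves were not tested, and exon positions were not analysed here.

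The receptors did not move together. *Fcgr1* fell the most, *Fcgrt* fell less, *Fcgr2b* and *Fcgr3* rose, and *Fcgr4* did not pass the test. By limma's test across all genes, 4 of the 5 members had an adjusted p under 0.05, 2 higher and 2 lower. Of all genes tested 52.4% were called, 23.4% higher and 29.0% lower, so a call by itself does not set a receptor apart in these arrays. Of the 7 probes, 6 were called, 4 higher and 2 lower, where 52.4% of all 31848 probes tested were called, 21.8% higher and 30.6% lower. At this setting 0 of the 5 genes were called with a difference of more than 2-fold, against 17.1% of all genes.

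Among the activating receptors, *Fcgr1* had log2 signals of 14.35, 14.63 and 14.59 without Cre (*Ano1fl/fl*) and 13.61, 13.47 and 13.76 with it (*Ctsk-Cre;Ano1fl/fl*). Every *Ctsk-Cre;Ano1fl/fl* array was below every *Ano1fl/fl* array. The means were 14.53 ± 0.15 (SD, n = 3) and 13.61 ± 0.14 (SD, n = 3), and the high-affinity receptor was thus 1.88-fold lower (log2 difference -0.91, SE 0.11, limma adjusted p = 0.00116). A larger difference in either direction was seen in 19.4% of all genes tested.

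*Fcgr3* moved the other way. Its brightest probe read 13.87, 13.94 and 14.06 without Cre and 14.45, 14.37 and 14.36 with it, with no overlap. The rise was 1.35-fold (log2 difference 0.44, SE 0.08, limma adjusted p = 0.00455). Its second probe read 12.10, 12.28 and 12.43 against 13.08, 12.96 and 12.96, a rise of 1.66-fold (log2 difference 0.73, SE 0.11, limma adjusted p = 0.00178 over all probes). Both probes gave the same direction but not the same size: within an array the second probe gained 0.30 ± 0.01 (SD, n = 3) on the brightest one, and the groups did not overlap (exact permutation p = 0.1, the smallest that 3 arrays against 3 allow, two-sided).

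*Fcgr4* read 14.03, 14.16 and 14.11 without Cre and 14.03, 14.11 and 14.28 with it, and the groups overlapped. The log2 difference was 0.035 with a 95% interval of -0.18 to 0.25 (limma adjusted p = 0.76). Its sign turned under 75th percentile scaling (-0.081) and without the third *Ctsk-Cre;Ano1fl/fl* array (-0.035), so no direction is given.

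The inhibitory receptor *Fcgr2b* was higher on both of its probes. The brightest read 12.77, 12.86 and 13.00 without Cre and 13.34, 13.26 and 13.53 with it, a rise of 1.42-fold with no overlap (log2 difference 0.50, SE 0.10, limma adjusted p = 0.00833). The second probe read 11.28, 11.31 and 11.42 against 11.85, 11.79 and 11.94, a rise of 1.44-fold (log2 difference 0.53, SE 0.08, limma adjusted p = 0.00249 over all probes). The gap between the probes differed by 0.024 between the groups, within the spread of the arrays (exact permutation p = 0.7, two-sided).

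*Fcgrt*, the recycling receptor, had log2 signals of 10.01, 9.86 and 10.03 without Cre and 9.67, 9.68 and 9.43 with it. The groups did not overlap, and the fall was 1.30-fold (log2 difference -0.38, SE 0.10, limma adjusted p = 0.0188). The call was lost without the first *Ano1fl/fl* array (-0.35, adjusted p = 0.0569), without the third (-0.35, adjusted p = 0.0606) and with the replicate number as a block (-0.38, adjusted p = 0.0551), while the difference stayed near its size.

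**Figure D1:**
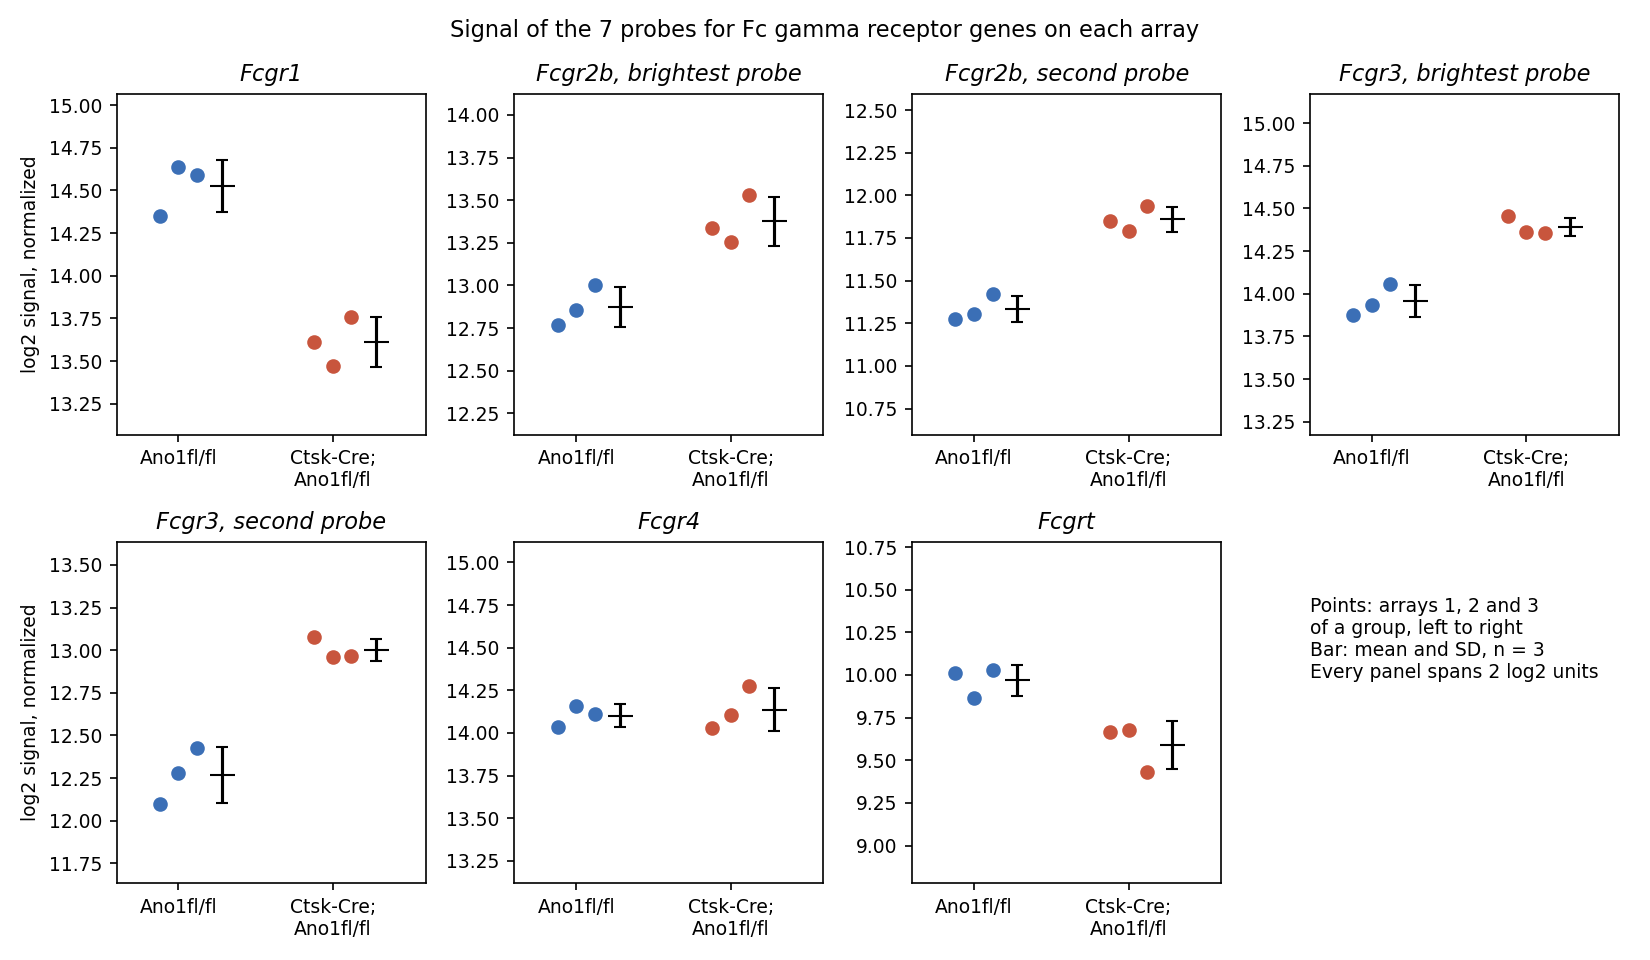
Normalized log2 signal of each of the 7 probes on the 3 Ano1fl/fl arrays (blue) and the 3 Ctsk-Cre;Ano1fl/fl arrays (red), with the mean and SD beside the points; every panel spans the same number of log2 units around its own centre. Fcgr1 and Fcgrt are lower and both probes of Fcgr2b and of Fcgr3 are higher on the Ctsk-Cre;Ano1fl/fl arrays, while the Fcgr4 groups overlap.

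The 4 called members were among the 64.0% of all genes whose groups did not overlap. Normalization matters for the rises: in processed signals before it, *Fcgr3* ran from 14491 to 20418 units on the *Ano1fl/fl* arrays and from 17366 to 22006 on the *Ctsk-Cre;Ano1fl/fl* arrays, and these ranges overlapped. The same was true of the brightest *Fcgr2b* probe (6709 to 9886 against 7939 to 11052). For *Fcgr1* they did not overlap (20238 to 29417 against 9221 to 12970), nor for *Fcgrt* (984 to 1240 against 659 to 852). With 75th percentile scaling the 4 differences were -1.002 for *Fcgr1*, 0.34 for *Fcgr3*, 0.40 for *Fcgr2b* and -0.40 for *Fcgrt*, all still called.

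**Figure D2:**
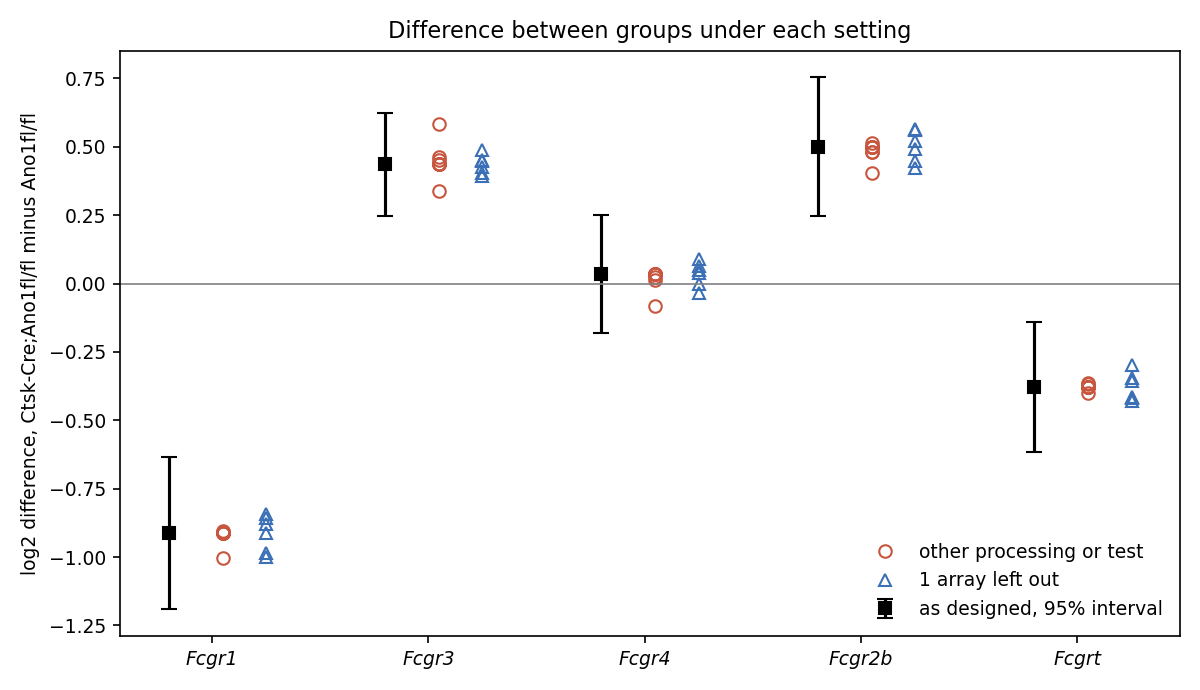
Log2 difference (Ctsk-Cre;Ano1fl/fl minus Ano1fl/fl) of each member as designed with its 95% interval (black), under other processing or tests (red circles) and with 1 array left out (blue triangles). Fcgr1 stays between -1.002 and -0.84, Fcgr2b between 0.40 and 0.56 and Fcgr3 between 0.34 and 0.59, whereas Fcgr4 crosses 0.

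Because Syk and SHIP1 answer to activating and inhibitory receptors on the same cell, each activating receptor was also set against *Fcgr2b* within an array, a comparison chosen after the values had been seen. Only the change between groups can be read, since 2 probes differ in brightness for reasons of their own. Bulk RNA also cannot show that both receptors lie on the same cell. Markers of B cells, whose Fc gamma receptor is *Fcgr2b*, differed between the groups, and their part in these shifts was not tested. The log2 signal of *Fcgr1* over *Fcgr2b*, taken relative to the *Ano1fl/fl* mean, was -0.070, 0.13 and -0.060 without Cre and -1.38, -1.44 and -1.43 with it. This was a shift of 2.66-fold toward *Fcgr2b* (mean -1.41, SE 0.07). The groups had to separate here, since *Fcgr1* fell and *Fcgr2b* rose, each without overlap. For *Fcgr4* the shift was 1.38-fold in the same direction (mean -0.47, SE 0.08), with -0.54, -0.38 and -0.48 on the *Ctsk-Cre;Ano1fl/fl* arrays. *Fcgr4* itself differed by only 0.035, so this shift restates the rise of *Fcgr2b*. *Fcgr3* over *Fcgr2b* overlapped between the groups (mean -0.065, SE 0.10). Of the 3 pairs, *Fcgr1* and *Fcgr4* reached the smallest exact permutation p of 0.1 (two-sided, 0.15 after Benjamini-Hochberg adjustment over the 3 pairs), so this test could not reach 0.05. The pairs are built from differences already given, so these p-values are no added evidence. With the second *Fcgr3* probe the *Fcgr3* value turned to 0.23 against the brightest *Fcgr2b* probe and 0.21 against the other, without overlap (exact permutation p = 0.1 for both, two-sided), so no direction is given for this pair.

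**Figure D3:**
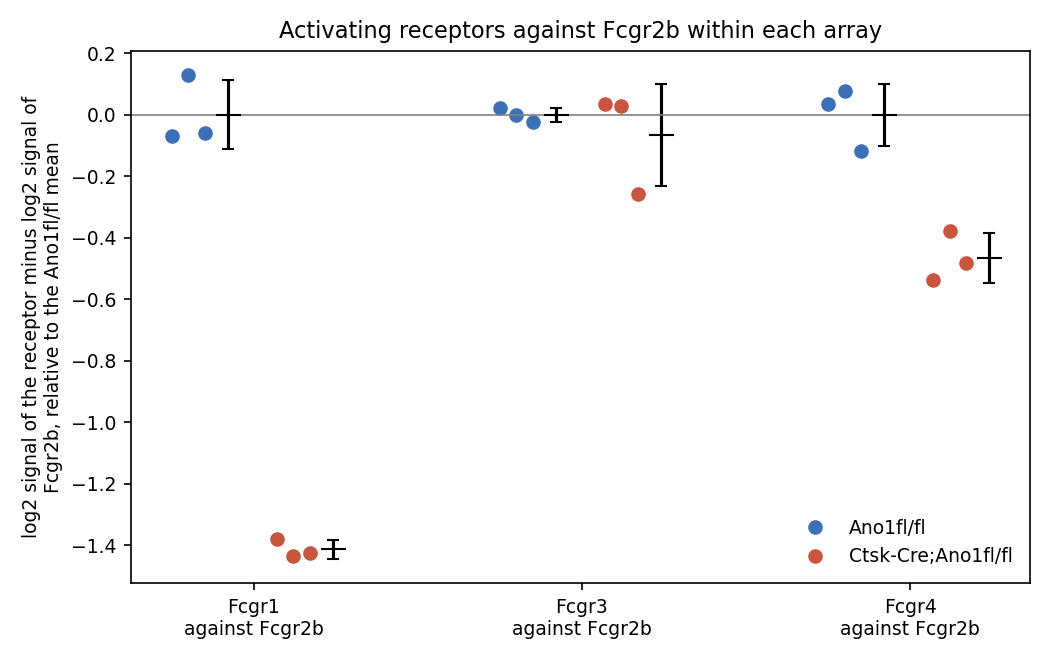
Log2 signal of Fcgr1, Fcgr3 and Fcgr4 minus that of Fcgr2b on the same array, relative to the Ano1fl/fl mean, with the mean and SD of 3 arrays beside the points. The Ctsk-Cre;Ano1fl/fl arrays sit near -1.41 for Fcgr1 and -0.47 for Fcgr4 and overlap the Ano1fl/fl arrays for Fcgr3, drawn from the brightest probes.

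The shared signalling subunits differed by 1.20-fold or less. *Fcer1g*, the gamma chain, had a mean of 17.04 ± 0.05 (SD, n = 3) on the *Ano1fl/fl* arrays and 17.31 ± 0.04 (SD, n = 3) on the others, a rise of 1.20-fold (limma adjusted p = 0.0173) that was no longer called under 75th percentile scaling (adjusted p = 0.111), without the third *Ano1fl/fl* array (0.0578) or without the first *Ctsk-Cre;Ano1fl/fl* array (0.0522). *Tyrobp* overlapped between groups (log2 difference 0.011, limma adjusted p = 0.924). *B2m*, the partner of *Fcgrt*, gave 0.049 on its brightest probe (adjusted p = 0.572) but -0.76 on a dimmer one (adjusted p = 0.00413 over all probes), so its direction is uncertain. Of the 8 subunit and trafficking genes, 4 rose, 1 fell and 3 were not called, with a median log2 difference of 0.16 against -0.059 over all genes tested. This was 62.5% called, near the 52.4% of all genes, and with 75th percentile scaling 2 rose and 2 fell. *Rab4a*, *Rab11a* and *Rab5a*, small GTPases of early and recycling endosomes, rose by 1.22, 0.43 and 0.29 on the log2 scale, and *Rab11fip5*, a Rab11 effector, fell by 0.79. The call for *Rab5a* was lost under 75th percentile scaling (adjusted p = 0.0616).

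Of 39 genes for the activating signal below the receptors, 17 rose, 9 fell and 13 were not called, with a median of 0.21. This was 66.7% called, where 52.4% of all genes were called, 23.4% higher and 29.0% lower, and whether the list differs from the other genes was not tested. With 75th percentile scaling 15 rose and 11 fell. The Src family kinases, which phosphorylate the ITAM, gave the largest rises: *Src* read 8.89 or less on the *Ano1fl/fl* arrays and 10.54 or more on the others (log2 difference 2.01, adjusted p = 0.000186), and *Yes1*, above background only on the *Ctsk-Cre;Ano1fl/fl* arrays, was at least 3.23-fold higher. *Prkca*, a protein kinase C, rose 2.82-fold. *Syk* itself rose 1.92-fold on its brightest probe, from 13.63 ± 0.11 (SD, n = 3) to 14.57 ± 0.10 (SD, n = 3) (limma adjusted p = 0.000414). Of its 4 probes 3 were higher, the other gave -0.21 (adjusted p = 0.275 over all probes), and the mean of the probes rose by 0.46. On the brightest probes the largest falls were those of *Card9*, an adaptor to NF-kappa B, by 0.76, the exchange factor *Vav3* by 0.69 and the kinase *Btk* by 0.63. Over the mean of the probes of each gene *Vav3* fell by 1.44 and *Card9* by 0.54, which turns their order.

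Of 22 genes for the inhibitory signal, 6 rose, 4 fell and 12 were not called (45.5% called), and the median was 0.083. With 75th percentile scaling, or without the first *Ctsk-Cre;Ano1fl/fl* array, 4 rose and 5 fell. *Inpp5d*, the phosphatase that *Fcgr2b* recruits, had a log2 difference of -0.21 (limma adjusted p = 0.0787) although its groups did not overlap. It passed the threshold in 3 of 15 alternatives, at -0.29 with 75th percentile scaling (adjusted p = 0.0204), with limma's trend and robust options (0.0346) and without the first *Ctsk-Cre;Ano1fl/fl* array (0.0449). *Ptpn6*, the phosphatase SHP-1, rose by 0.25 (adjusted p = 0.0239), and its call was lost in 6 of 15 alternatives, where the adjusted p reached 0.109, while over the mean of its 4 probes it rose by 0.43. Other inhibitory receptors went both ways: *Siglece* rose by 1.04, *Pilra* by 0.98 and *Pecam1* by 0.91, while *Cd300a* fell by 0.65. *Gp49a*, a relative of these receptors that lacks the ITIM motif, fell by 0.50 and the SHIP1-related phosphatase gene *Inppl1* by 0.42. One of the 3 *Pilra* probes gave -0.069, and *Inppl1* was not called without the third *Ctsk-Cre;Ano1fl/fl* array (adjusted p = 0.0548).

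Of 47 genes for the phagocytic cup and oxidative burst, which engaged receptors set off, 9 rose, 6 fell and 32 were not called, with a median of 0.035 and 31.9% called against 52.4% of all genes. Over the mean of the probes of each gene 6 rose and 12 fell, so the balance of the list depends on the probes. The largest rises were those of *Sphk1*, a sphingosine kinase, by 3.31 (adjusted p = 6.54e-05), the lipid kinase *Pip5k1b* by 2.75 and the GTPase *Rac2*, part of the NADPH oxidase, by 1.07. *Pak1* fell by 0.67, *Rab5c* by 0.66 and *Was* by 0.37, the last 2 losing their calls in 5 and 8 of 15 alternatives.

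**Figure D4:**
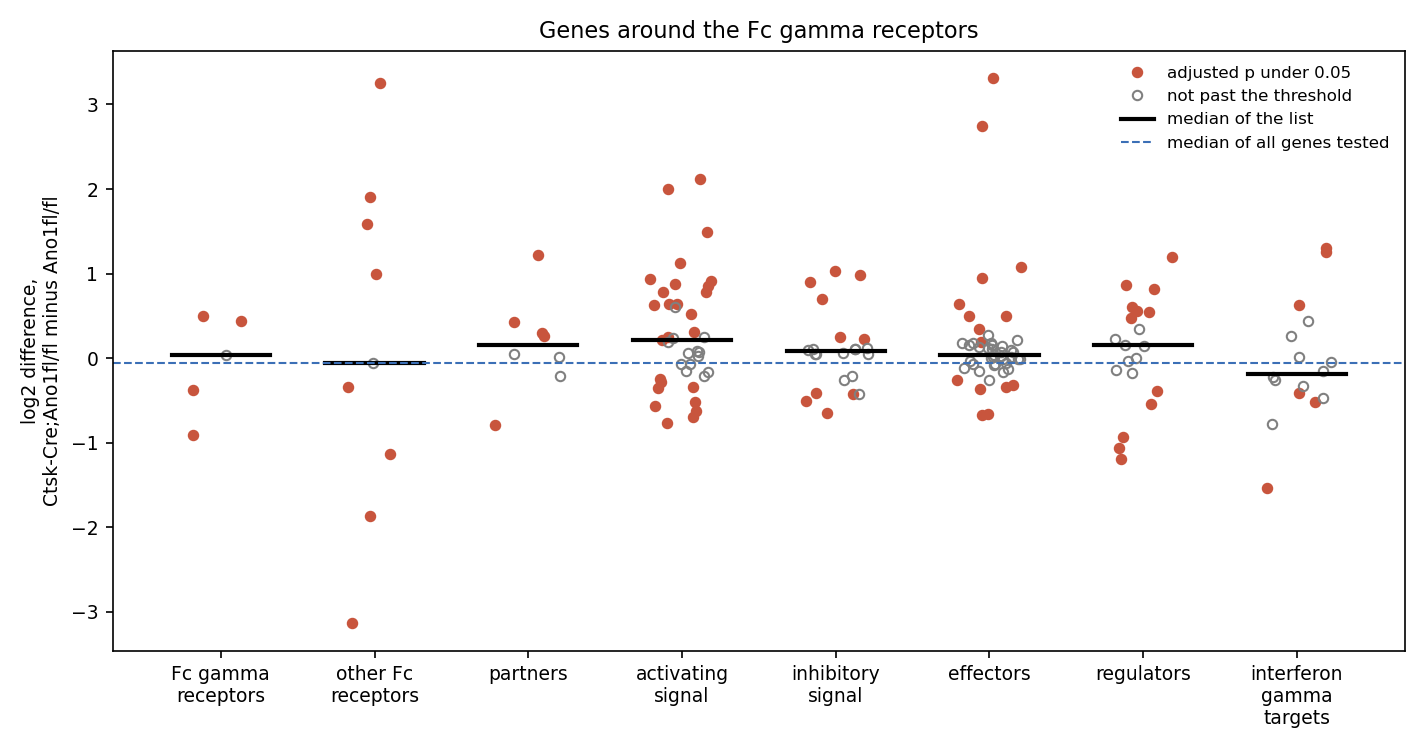
Log2 difference (Ctsk-Cre;Ano1fl/fl minus Ano1fl/fl) of every tested gene of the receptor family and of 7 lists around it, with genes past limma's threshold filled in red, the median of each list as a black line and that of all genes dashed. The activating list has 17 filled points above 0 and 9 below, and most of the 47 effector genes lie near 0.

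Of 20 genes for factors known to act on Fc gamma receptor genes, 7 rose, 5 fell and 8 were not called, with a median of 0.15. The share called, 60.0%, lay near the 52.4% of all genes. *Ifngr1*, the ligand-binding chain of the interferon gamma receptor, read 14.29 or more on the *Ano1fl/fl* arrays and 13.27 or less on the *Ctsk-Cre;Ano1fl/fl* arrays, a fall of 2.28-fold (limma adjusted p = 0.000109). Interferon gamma is the classical inducer of *Fcgr1*. The complement receptor *C5ar1* fell by 1.06 and *Il10ra* by 0.93, and *Tgfbr1*, *Tgfbr2* and *Jak2* rose by 1.20, 0.86 and 0.82. The *Tgfbr1* rise was lost over the mean of its 4 probes (0.59, adjusted p = 0.0837), and that of *Jak2* was 0.50 over the mean of its 2 probes, the dimmer of which gave 0.17. Among 16 genes that interferon gamma induces, 3 rose, 3 fell and 10 were not called (37.5% called), with a median of -0.19. *Iigp1* fell by 1.54, *Psmb9* by 0.52 and *Irgm1* by 0.41, and *Cxcl9*, *Socs1* and *Icam1* rose by 1.30, 1.26 and 0.63. *Psmb9* and *Irgm1* lost their calls in 6 and 8 of 15 alternatives.

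The upstream sequences of *Fcgr1*, which fell, and of *Fcgr3* and *Fcgr2b*, which rose, are set out to compare what lies before each start. They are the 250 bases before the start in RefSeq (GRCm38.p6, all on the minus strand, 5′ to 3′ in the direction of transcription). Capitals mark GAGGAA, the core that the myeloid factor PU.1 binds, on either strand (TTCCTC as read here).
Fcgr1 (chr3:96293970-96294219): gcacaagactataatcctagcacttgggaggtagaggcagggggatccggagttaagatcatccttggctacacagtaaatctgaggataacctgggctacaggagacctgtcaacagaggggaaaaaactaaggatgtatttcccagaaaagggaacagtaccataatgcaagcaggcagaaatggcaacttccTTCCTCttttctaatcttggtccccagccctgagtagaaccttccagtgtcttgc
Fcgr3 (chr1:171059395-171059644): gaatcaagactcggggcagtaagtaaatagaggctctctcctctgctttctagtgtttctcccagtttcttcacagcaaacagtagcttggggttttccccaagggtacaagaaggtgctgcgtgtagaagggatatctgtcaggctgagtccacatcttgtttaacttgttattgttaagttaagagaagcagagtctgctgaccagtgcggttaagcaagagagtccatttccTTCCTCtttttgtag
Fcgr2b (chr1:170976072-170976321): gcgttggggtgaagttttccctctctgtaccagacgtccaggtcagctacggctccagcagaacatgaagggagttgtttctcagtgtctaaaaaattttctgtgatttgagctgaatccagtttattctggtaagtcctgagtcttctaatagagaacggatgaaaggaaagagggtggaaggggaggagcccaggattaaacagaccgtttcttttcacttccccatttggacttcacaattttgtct
*Fcgr1* holds it 55 bases before the start. Over all 32851 windows of 300 bases in RefSeq, 28.3% hold GAGGAA. *Fcgr3* holds GAGGAA 15 bases before the start of this window, and its other RefSeq window starts 9 bases away. *Fcgr4* holds GAGGAA at 22 bases, and *Fcgr2b* and *Fcgrt* do not hold these letters in this window. The longest run that the upstream sequences of *Fcgr1* and *Fcgr3* share is TTCCTTCCTCTTTT, 14 bases around GAGGAA on the opposite strand, which occurs near the start of 4 genes in all, whereas the other 9 pairs of members share 7 or 8 bases. These matches are descriptions of the letters, and the 2 genes moved in opposite directions. *Spi1*, the gene of PU.1, rose by 0.48 (adjusted p = 0.0223), a call lost in 6 of 15 alternatives.

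*Fcgr2b*, *Fcgr4* and *Fcgr3* follow each other on chromosome 1 in the gene reference, and *Fcgr4*, in the middle, was the one not called. *Fcrla*, a B cell gene beyond *Fcgr2b*, rose by 3.25, and *Cfap126* and *Sdhc*, beyond *Fcgr3*, rose by 0.83 and 0.39. Next to *Fcgr1* on chromosome 3, the histone gene *Hist2h2bb* had a log2 difference of -0.77 on its brightest probe (adjusted p = 0.0344), a call lost in 7 of 15 alternatives, but 2.08 over the mean of its probes (adjusted p = 0.000284), so its direction is uncertain, and *Hist2h3b* gave -0.61 (adjusted p = 0.105). On its other side *BC107364* gave 0.15 (adjusted p = 0.156) and *Hfe2* was not above background. Beside *Fcgrt* on chromosome 7, *Rcn3* rose by 2.67 and *Nosip* fell by 0.39, while the ribosomal protein gene *Rpl13a* gave 0.19 (adjusted p = 0.0676), which passed the threshold in 5 of 15 alternatives.

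Over the 6 arrays, *Fcgr2b* and *Fcgr3* were the members most alike, at a Euclidean distance of 0.25 between their centred log2 signals, and the other 9 pairs lay 0.56 to 1.74 apart. The genes nearest to *Fcgr1* by this measure were *Hmgn2* (0.13), *Tssk6* (0.14) and *Cebpe* (0.14). *Swap70*, *Cd164* and *Stx11* were nearest to *Fcgr2b* (0.08 to 0.13), and *Naa20*, *Litaf* and *Prmt10* to *Fcgr3* (0.07 to 0.08). For *Fcgr4* they were *Ltn1*, *Pphln1* and *Rpf2* (0.05 to 0.07), and for *Fcgrt* *Fam160b1*, *Pkd1* and *Dstyk* (0.09). The points are 6 arrays of 2 groups, so a small distance mostly says that 2 genes differed between the groups by a like amount.

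Several other Fc receptors and Fc receptor-like genes differed by more than 2-fold, a size that of the members *Fcgr1* alone reached, at -1.002 with 75th percentile scaling and -1.001 without the first *Ano1fl/fl* array. Of 9 tested, 4 rose and 4 fell, 3 in each direction by more than 2-fold, and *Fcamr* and *Fcrl6* were not above background. Over all genes 52.4% were called, and 17.1% were called with a difference of more than 2-fold. *Fcrla*, *Fcer1a* and *Ms4a2* are counted again among the cell type markers below. *Fcrla*, *Fcrls* and *Fcrl1* rose by 3.25, 1.90 and 1.59 on the log2 scale. *Fcer1a* and *Ms4a2*, the alpha and beta chains of the high-affinity IgE receptor of mast cells and basophils, fell by 1.86 and 3.13, although *Ms4a2* was above background on 1 of the 3 *Ctsk-Cre;Ano1fl/fl* arrays, which leaves the size of its fall uncertain, and *Pigr* fell by 1.13, a call lost over the mean of its 2 probes (adjusted p = 0.134).

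Markers of several cell types that carry Fc gamma receptors differed between the same arrays. The counts of markers below are of genes called, where 52.4% of all genes were called, 23.4% higher and 29.0% lower. Among osteoclast markers 12 of 13 rose and 1 fell, under the labels as given, and their summed normalized signal ran from 202081 to 218348 units on the *Ano1fl/fl* arrays and from 579313 to 655107 on the *Ctsk-Cre;Ano1fl/fl* arrays. Macrophage and monocyte markers were mixed, with 3 higher, 4 lower and 6 not called of 13, and sums of 676990 to 697382 against 741601 to 819661. Within them the monocyte receptors *Cx3cr1* and *Ccr2* fell by 4.62 and 3.36, *Ly6c2* by 1.42 and *Mrc1* by 1.36. The scavenger receptors *Marco* and *Msr1* rose by 3.01 and 0.75 and *Adgre1* by 0.80, and *Csf1r* was not called (-0.036).

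For neutrophils, which carry *Fcgr3* and *Fcgr4*, 8 of 13 markers fell and 2 rose, with sums of 356339 to 376294 against 257965 to 305131. The other 3 were not called, and the median over the 13 was -0.60. *Mpo* and *Elane*, of early granules, fell by far more than this median, by 3.41 and 3.25. For B cells, whose Fc gamma receptor is *Fcgr2b*, 8 of 9 tested markers rose and 1 fell, with sums of 6782 to 8329 against 20757 to 40262, and *Igll1* was not above background. Mast cell and basophil markers fell in 5 of 7 and were not called in 2, with sums of 7089 to 9402 against 987 to 3689 and *Mcpt4* and *Cma1* not above background.

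Stromal cell and osteoblast markers rose in 11 of 13 and fell in 1, with sums of 2193 to 3258 against 57079 to 95312. Dendritic cell markers rose in 4 of 7 and fell in 1 (sums of 17983 to 18913 against 25538 to 28274, *Xcr1* not above background). T and NK cell markers rose in 3 of 9 and fell in 2 (4575 to 4846 against 4778 to 6648), and endothelial markers rose in 1 of 6 and fell in 3 (6743 to 8435 against 3464 to 4085, *Tek* not above background). The part of these shifts in the receptor differences was not tested.

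**Figure D5:**
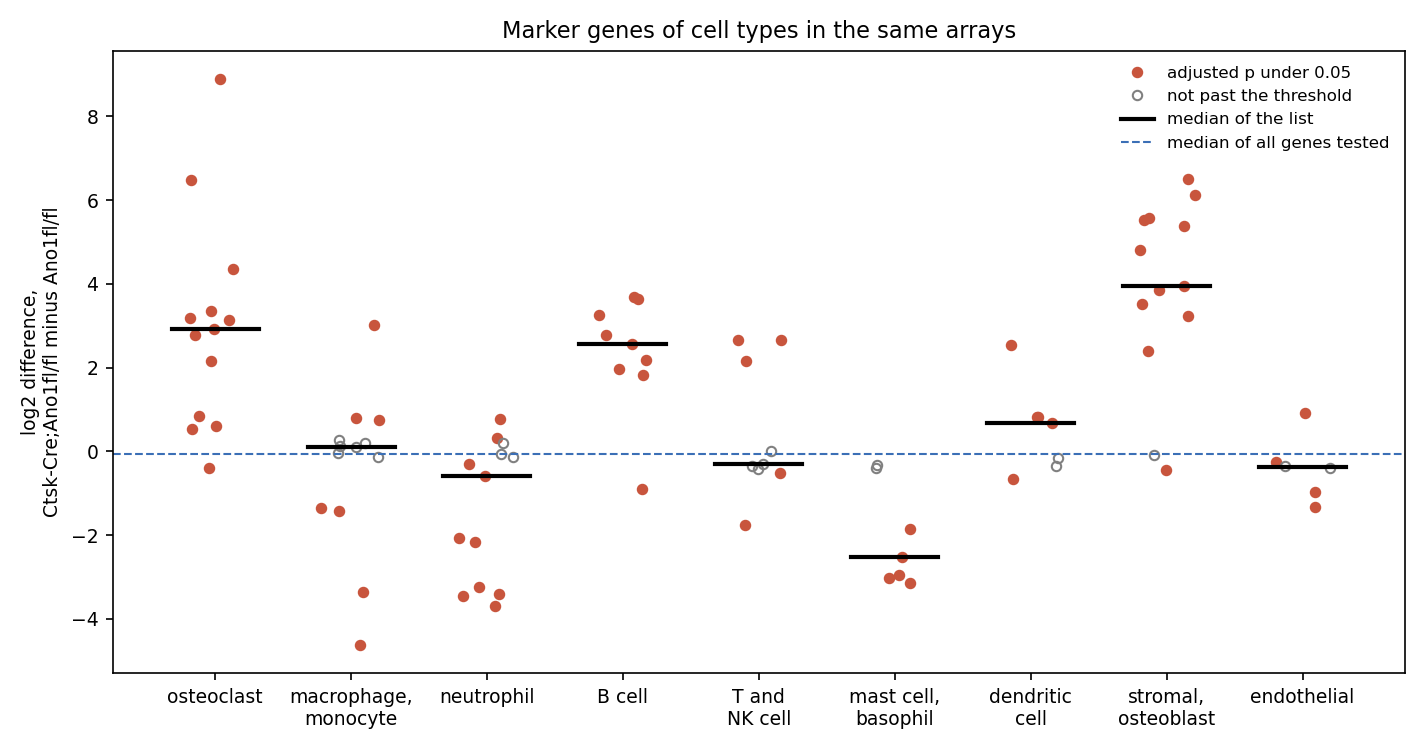
Log2 difference (Ctsk-Cre;Ano1fl/fl minus Ano1fl/fl) of the tested marker genes of 9 cell types, drawn as in the plot of the receptor lists. Osteoclast, B cell and stromal markers lie mostly above 0, and mast cell and most called neutrophil markers below.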

How the data were processed

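RNA of osteoclasts from 3 Ano1fl/fl and 3 Ctsk-Cre;Ano1fl/fl mice was measured on 6 one-colour arrays. The deposited intensity values were made by the authors with Agilent Feature Extraction 10.7.1.1, per the submitters' processing notes, and had not been normalized between arrays; the deposited series matrix equals the median spot intensity (largest difference 0). Log2 processed signals, with outlier spots as missing, were quantile normalized with limma 3.58.1 (R 4.3.3), as the methods name. Spots of a probe were averaged. A gene was its brightest probe, tested where either group had it above background on all 3 arrays, by limma's linear model with empirical Bayes, Benjamini-Hochberg over 20645 genes (31848 probes), threshold 0.05. The fit was tested on simulated data. Named were the members, 6 direct partners, the 3 largest rises and falls at the threshold in each list, the 3 nearest genes by distance (no clone, predicted or probe names) and gene neighbours, where reported here; cell type markers, *Spi1* and the within-array pairs were added. The members and lists were chosen with earlier results of these data known. All 5 members matched the RefSeq tables (GRCm38.p6, used for order and upstream sequence only). Alternatives were 75th percentile scaling, normexp (offset 50), the series matrix, filters, mean of probes, other tests, a replicate block and leaving out each array. Lower bounds set a dim group at the smallest signal that an array marked as above background.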

Additional observations from a re-analysis of the deposited data

How the results depend on the processing

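*Fcgr1*, *Fcgr2b* and *Fcgr3* kept their direction and call in all 15 alternatives, at adjusted p up to 0.00855, 0.0316 and 0.0246, and so did all their probes in 12. With 1 array left out, *Fcgr1* ranged from -1.001 to -0.84, *Fcgr2b* from 0.42 to 0.56, *Fcgr3* from 0.39 to 0.49, *Fcgr4* from -0.035 to 0.090 and *Fcgrt* from -0.43 to -0.30. *Fcgr4* turned to -0.081 under 75th percentile scaling, which put the median of all genes at -0.12 in place of -0.059. With the replicate block *Fcgrt* was still at -0.38 but no longer called (adjusted p = 0.0551 over genes and 0.0583 over probes), nor on the probe level without the third Ctsk-Cre;Ano1fl/fl array (0.0511). The labels do not say whether the replicate numbers pair the arrays. Deviations of same-numbered arrays had r of 0.004, -0.062 and -0.081, against -0.123 to 0.179 for arrays with unlike numbers. Such correlations show no pairing by number but cannot exclude one, since the controls were littermates. The block left 4200 genes higher and 5079 lower in place of 4839 and 5987. The methods' t-test called 11541 genes before and 9674 after Benjamini-Hochberg adjustment.

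Counts of partners moved from 4 to 2 higher under 75th percentile scaling and from 1 to 2 lower there and with normexp, the series matrix and the mean of probes. With the mean of probes, falls among effectors went from 6 to 12 and rises from 9 to 6, which turns their balance. Falls among interferon gamma targets went from 3 to 5 under 75th percentile scaling or limma's trend and robust options and to 1 with no filter or the methods' t-test. With 1 array left out, falls ranged from 1 to 2 among partners, 5 to 8 in the activating list, 3 to 5 among effectors and 1 to 4 among interferon gamma targets. The cause was not tested. The within-array shifts were -1.41 for *Fcgr1*, -0.064 for *Fcgr3* and -0.48 for *Fcgr4* under 75th percentile scaling, an alternative added after seeing the data. With 3 arrays a group, differences the size of that of *Fcgr4* were not detectable.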
